A study of Mus musculus with 2 samples.

Results

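The 10 genes followed here in mouse kidney cortex mark macrophage residency, recruitment and repair. They were Folr2, Cd163, Mrc1 and F13a1, the chemokine receptor genes Ccr2 and Cx3cr1, and Cd81, Apoe, Trem2 and Mertk, picked by name from the feature list of both count matrices. All 10 were found, each as 1 row, among 31053 genes, and each had UMIs (unique molecular identifiers, which count captured RNA molecules) in both libraries. The study put a single-cell library of PT I-PpoI kidney cortex beside one of wild-type kidney cortex, both from mice of 16 weeks. I-PpoI is a homing endonuclease that cuts DNA, and the title of the series places its expression in epithelium of the proximal tubule (PT). The labels used here name no driver line, inducer or sex, and do not give the number of mice behind a library. With 1 library per group no difference between the groups could be tested. All intervals in square brackets are 95% intervals that cover counting error only.

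Tissue macrophages of the kidney come from cells seeded before birth and from blood monocytes that enter later. Ccr2, the receptor for the chemokines Ccl2, Ccl7 and Ccl12, marks cells that came recently from blood, whereas Cx3cr1, the receptor of fractalkine, is read in most kidney macrophages and in patrolling monocytes. Folr2 (a folate receptor), Cd163 (the scavenger receptor for haemoglobin bound to haptoglobin) and Mrc1 (the mannose receptor CD206) are used as markers of long-lived scavenging macrophages, often those lying along vessels, and F13a1, the A subunit of coagulation factor XIII, is read in such cells and also in monocytes. Mertk is a receptor for the uptake of dying cells through its bridging ligands Gas6 and Pros1, Trem2 is a lipid-sensing receptor that signals through Tyrobp, Apoe is a secreted carrier of lipids, and Cd81 is a tetraspanin that many cell types make.

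The PT I-PpoI library held 93257620 UMIs and the wild-type library 107977310. After cells were called, 5111 PT I-PpoI cells (median 11186 UMIs) and 11965 wild-type cells (median 2691 UMIs) were kept, and 22 of their barcodes occurred in both libraries. Doublet calls removed 1.31% of PT I-PpoI cells and 2.17% of wild-type cells. Cells were grouped without the 10 genes, and 263 PT I-PpoI and 752 wild-type cells were macrophage-like, with a median of 5009 and 2599 UMIs and a sum of 1549421 and 2184800 UMIs. All 10 macrophage markers were read in both, in CPM (UMIs per 1000000 UMIs of the class) from 283 CPM of Adgre1 in either library to 7131 CPM of C1qb in PT I-PpoI, against 6000 CPM in wild-type cells. Most PT I-PpoI macrophages fell in 1 joint cluster (253 cells, with 10 of wild type), and wild-type macrophages fell in 3 others (400, 229 and 113 cells, with 2, 1 and 7 of PT I-PpoI). Free RNA, estimated from tubule genes, made up 6.86% of PT I-PpoI and 29.3% of wild-type macrophage UMIs, and wild-type macrophages read all 14 proximal tubule markers, at a summed 3615 CPM, where PT I-PpoI macrophages read 11 of 14 (Slc22a6, Slc7a13 and Cubn at 0).

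Promoters are shown for the 4 scavenger genes, Folr2, Cd163, F13a1 and Mrc1, whose PT I-PpoI macrophage UMIs lay mostly in the same few cells (described further on), Mrc1 less so than the other 3. They are RefSeq windows of 300 bases on GRCm38.p6, printed 5′ to 3′ on the gene's strand, at the furthest upstream GENCODE M21 principal start of each gene. Folr2 lies at chr7:101857141-101857440 (minus strand), Cd163 at chr6:124304401-124304700 (plus), F13a1 at chr13:37050195-37050494 (minus) and Mrc1 at chr2:14229164-14229463 (plus). Capitals mark exact matches, on either strand, to GAGGAA (PU.1), TGCTGA (MAF), TGANTCA (AP-1), TTGCNNAA (C/EBP), TATAAA (the TATA box) or the interferon-stimulated element.
Folr2: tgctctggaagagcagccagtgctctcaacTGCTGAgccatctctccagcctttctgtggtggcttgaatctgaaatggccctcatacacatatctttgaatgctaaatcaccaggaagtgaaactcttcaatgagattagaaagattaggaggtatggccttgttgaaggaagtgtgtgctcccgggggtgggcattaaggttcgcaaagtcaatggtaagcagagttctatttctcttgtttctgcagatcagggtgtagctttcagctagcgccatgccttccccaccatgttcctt
Cd163: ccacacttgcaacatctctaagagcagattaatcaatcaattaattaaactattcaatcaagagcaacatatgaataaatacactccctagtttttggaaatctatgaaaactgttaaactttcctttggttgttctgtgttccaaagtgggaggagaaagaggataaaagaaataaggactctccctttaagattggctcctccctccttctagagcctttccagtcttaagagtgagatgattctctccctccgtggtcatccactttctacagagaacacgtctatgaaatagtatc
F13a1: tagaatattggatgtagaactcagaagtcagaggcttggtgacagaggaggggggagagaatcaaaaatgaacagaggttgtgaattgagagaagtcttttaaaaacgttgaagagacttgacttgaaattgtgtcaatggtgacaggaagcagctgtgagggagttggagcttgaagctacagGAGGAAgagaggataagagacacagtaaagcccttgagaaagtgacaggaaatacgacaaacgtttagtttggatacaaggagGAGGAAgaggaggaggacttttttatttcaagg
Mrc1: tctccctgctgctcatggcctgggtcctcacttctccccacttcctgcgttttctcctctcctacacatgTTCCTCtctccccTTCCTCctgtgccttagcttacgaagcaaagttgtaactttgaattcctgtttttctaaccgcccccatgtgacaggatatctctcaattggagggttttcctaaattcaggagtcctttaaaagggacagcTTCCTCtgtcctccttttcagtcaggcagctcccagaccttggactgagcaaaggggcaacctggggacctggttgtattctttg
F13a1 held 2 PU.1 matches, Mrc1 held 3, all on the opposite strand, Folr2 held 1 MAF match, and Cd163 held none of the 6 motifs. No match overlapped one of another motif. Of all 32851 RefSeq mouse promoter windows, 28.3% held the PU.1 letters, 19.5% the MAF letters, 7.81% AP-1, 3.44% the interferon-stimulated element, 10.8% C/EBP and 13.6% the TATA box. Which start site was used in these cells was not tested, since 3′ counts do not show it, and Folr2 and F13a1 each have a second RefSeq window.

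Of the scavenger genes, Folr2 and Cd163 were highest in macrophages in both libraries, but were read in very few of them. In macrophages Folr2 stood at 72.3 CPM [59.5 to 87.0] in PT I-PpoI, against 6.87 CPM [3.84 to 11.3] in wild type. These were 112 UMIs in 9 of 263 PT I-PpoI cells and 15 UMIs in 4 of 752 wild-type cells. No Folr2 UMI was read in monocyte-like, conventional dendritic-like or T-like cells of either library. Proximal tubule-like cells had 1.88 CPM in PT I-PpoI (4 UMIs) and 1.15 CPM in wild type (38 UMIs). Orders of classes, here and below, cover classes of 50 or more cells. In that order PT I-PpoI macrophages stood clear of the next class, whereas the interval of wild-type macrophages overlapped that of thin limb-like cells, the next in order (1 UMI). Folr2 lies at chr7:101839988-101857194 on the minus strand and overlaps 2 gene models of the other strand.

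Cd163 gave 41.3 CPM [31.8 to 52.7] in PT I-PpoI macrophages and 10.1 CPM [6.31 to 15.2] in wild-type ones, from 64 UMIs in 11 cells and 22 UMIs in 12 cells. Conventional dendritic-like cells had 3 UMIs in 3 PT I-PpoI cells and 6 UMIs in 6 wild-type cells, and in wild type their interval overlapped that of macrophages. Mural-like cells, next in order in PT I-PpoI, had 5 UMIs there and none in wild type. Mrc1 was far more widespread, read in 87 of 263 PT I-PpoI macrophages and 232 of 752 wild-type macrophages, at 268 CPM [243 to 295] and 191 CPM [173 to 211]. Its span overlaps Mir511 on the same strand. Mrc1 was also read in conventional dendritic-like cells, at 3.46 CPM in PT I-PpoI (3 UMIs in 2 of 77 cells) and 46.2 CPM in wild type (38 UMIs in 23 of 140 cells).

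F13a1 was a gene of monocytes and of rare macrophages. In the 18 PT I-PpoI and 27 wild-type monocyte-like cells it stood at 288 CPM [205 to 394] and 222 CPM [139 to 336], from 39 UMIs in 9 cells and 22 UMIs in 8 cells. In macrophages it stood at 132 CPM [115 to 152] in PT I-PpoI (205 UMIs in 17 cells), against 14.6 CPM [10.0 to 20.7] in wild type (32 UMIs in 8 cells). Dendritic cells had 1 UMI in each library. Both monocyte groups are under 50 cells, so their levels rest on few cells.

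**Figure D1:**
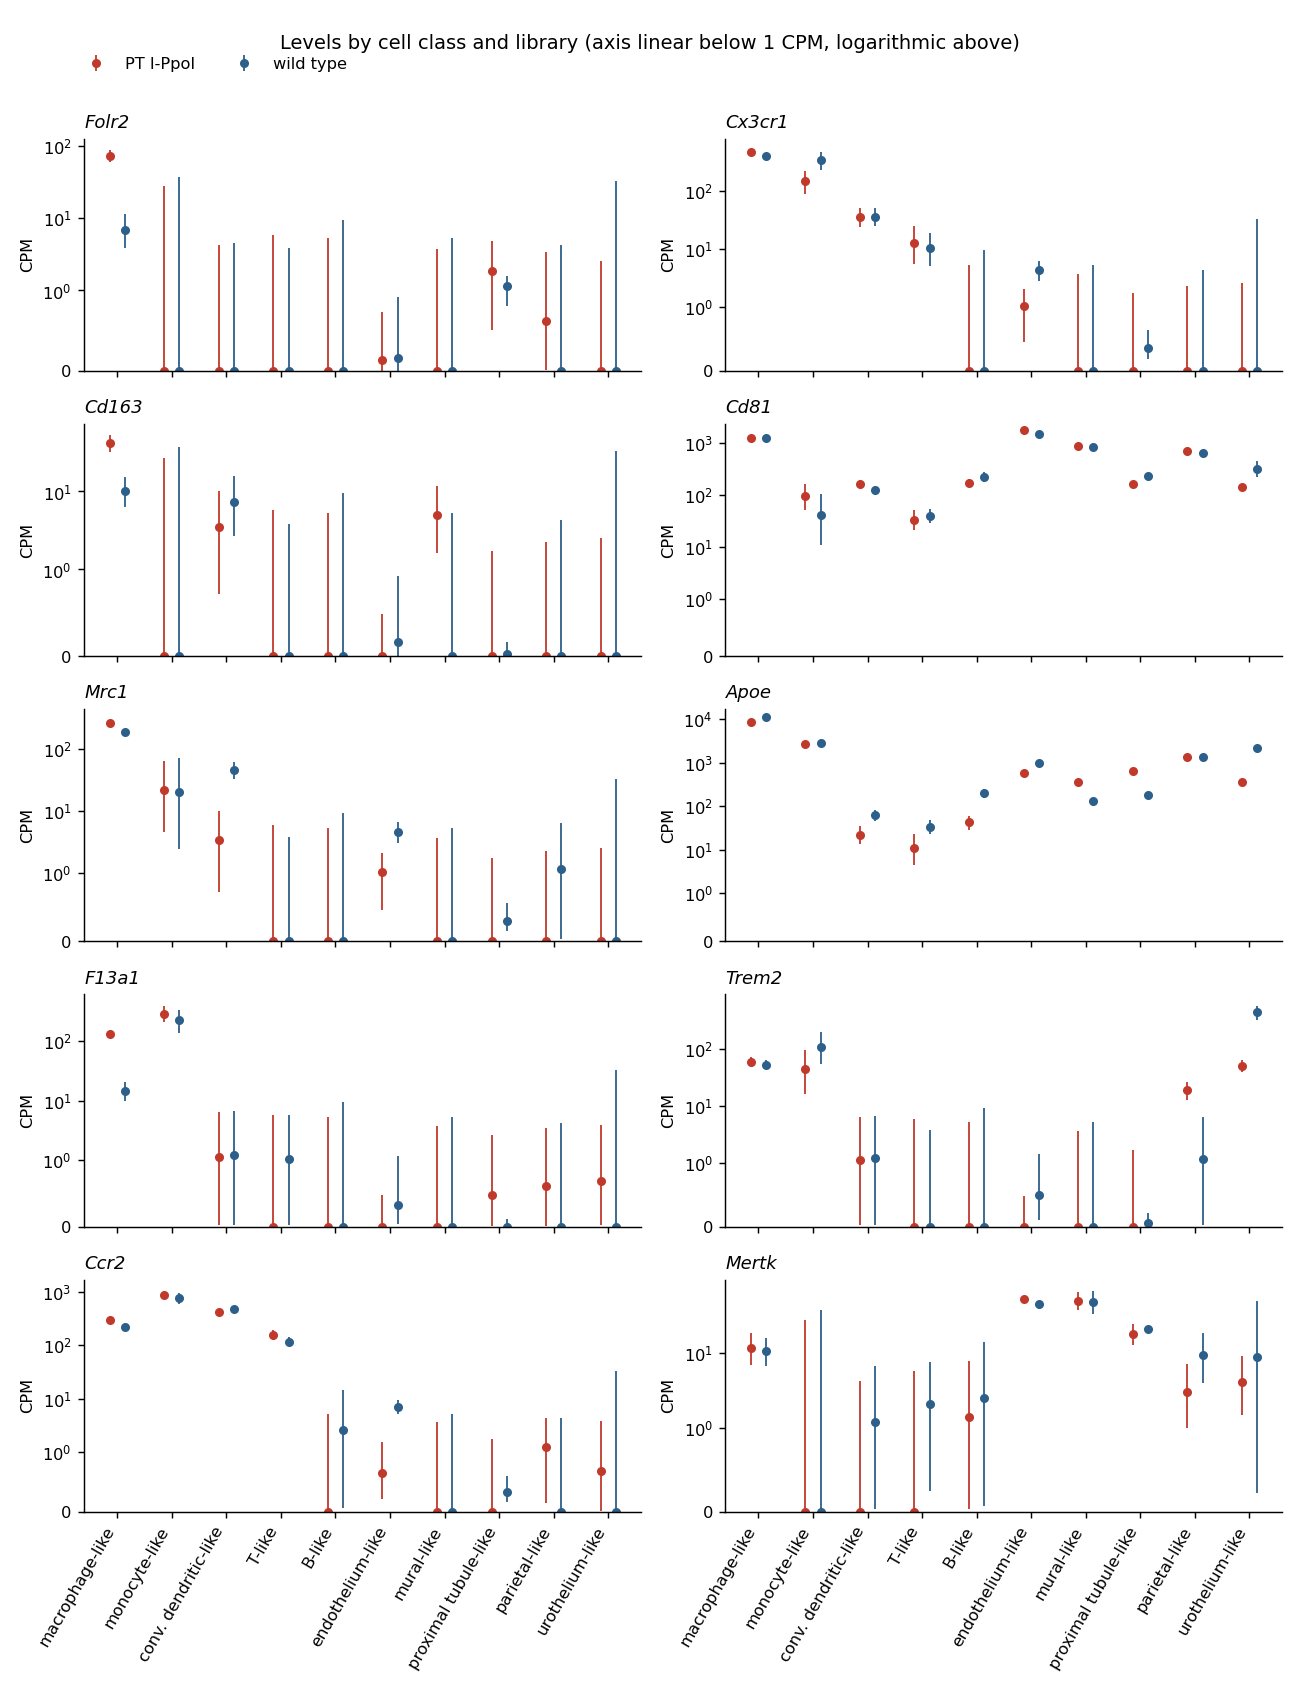
Level of each gene in 10 cell classes, in CPM on an axis that is linear below 1 and logarithmic above, for PT I-PpoI (red, left) and wild type (blue, right), with 95% Poisson intervals that cover counting error only. Folr2, Cd163 and F13a1 sit higher in PT I-PpoI macrophages than in wild-type ones, while the intervals of F13a1 in monocytes and of Ccr2 in dendritic cells overlap between the libraries.

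The 2 chemokine receptors ordered the phagocytes differently. Ccr2 was at 864 CPM [715 to 1036] in PT I-PpoI and 756 CPM [594 to 947] in wild-type monocyte-like cells. Conventional dendritic-like cells had 421 CPM [379 to 466] and 475 CPM [429 to 525], macrophages 290 CPM [264 to 318] and 215 CPM [196 to 235], and T-like cells 156 CPM and 115 CPM. Among classes of 50 or more cells, dendritic, macrophage and T-like cells were the first 3 in that order in both libraries, with no overlap between neighbours. Cx3cr1 was highest in macrophages, with 483 CPM [449 to 519] in PT I-PpoI and 412 CPM [386 to 440] in wild type. Monocyte-like cells had 148 CPM [90.2 to 228] and 343 CPM [237 to 479] of Cx3cr1, and conventional dendritic-like cells 35.7 CPM and 36.5 CPM. The wild-type monocyte interval overlapped that of wild-type macrophages. In GENCODE M21 the span of Cx3cr1 overlaps genes of both strands.

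Of the repair genes, Apoe was the macrophage gene and Cd81 and Mertk were read more in other cells. Apoe stood at 8664 CPM [8518 to 8812] in PT I-PpoI and 11301 CPM [11160 to 11443] in wild-type macrophages. Monocyte-like cells had 2629 CPM and 2871 CPM, and the epithelium of Bowman's capsule (parietal-like) 1327 CPM and 1356 CPM. Of other groups too small to be ordered, fibroblast-like cells had 2839 CPM (33 cells) and 2023 CPM (19 cells) of Apoe. The 14 wild-type urothelium-like cells had 2197 CPM. Conventional dendritic-like cells had 21.9 CPM and 62.0 CPM of Apoe, so that Apoe parted dendritic cells from macrophages in each library. Among classes of 50 or more cells Cd81 was highest in endothelium-like cells, at 1756 CPM [1727 to 1786] and 1512 CPM [1481 to 1543], with macrophages second at 1255 CPM [1200 to 1312] and 1218 CPM [1172 to 1265]. Among the same classes Mertk was led by endothelium-like cells (52.6 CPM in PT I-PpoI, 44.5 CPM in wild type) and mural-like cells (50.1 and 48.6 CPM), which overlapped and changed places between the libraries, and stood at 11.6 CPM [6.89 to 18.4] and 10.5 CPM [6.67 to 15.8] in macrophages, from 18 and 23 UMIs. The 45 PT I-PpoI and 18 wild-type podocyte-like cells, too few to be ordered, stood above these for both genes, at 2783 and 2588 CPM of Cd81 and 360 and 365 CPM of Mertk.

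Trem2 had 93 UMIs in 51 PT I-PpoI macrophages and 118 UMIs in 80 wild-type ones, with CPM intervals of [48.4 to 73.5] and [44.7 to 64.7]. Monocyte-like cells had 44.3 CPM [16.3 to 96.4] and 111 CPM [55.3 to 198] of Trem2. It was also read in a few cells outside the immune classes. Urothelium-like cells held 74 Trem2 UMIs in 9 of 72 PT I-PpoI cells and 50 UMIs in 4 of 14 wild-type cells, of which a single cell gave 36 and 37. In the PT I-PpoI parietal-like class 31 Trem2 UMIs came from 2 of 86 cells, against 1 UMI in 100 wild-type cells. Apoe in the urothelium-like cells was held as unevenly, with 5 cells giving 81.8% of 516 UMIs in PT I-PpoI and 95.5% of 247 UMIs in wild type.

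Which of these genes differed between the libraries in macrophages was asked next, on the sum of all macrophage UMIs. A gene counted as higher or lower at a 2-fold or larger ratio with 20 or more UMIs over both libraries, which all 10 genes had. Folr2, Cd163 and F13a1 were higher in PT I-PpoI and none was lower, where 5.58% of the 8910 genes measured in macrophages were higher by the same rule and 4.33% were lower. The log2 ratio, PT I-PpoI over wild type, was 3.36 [2.61 to 4.28] for Folr2, 3.16 [2.63 to 3.76] for F13a1 and 2.02 [1.32 to 2.81] for Cd163. The median log2 ratio of the 10 genes was 0.33, against 0.16 over all genes measured, and TMM scaling would move every ratio by -0.16.

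The other 7 genes lay within 2-fold. The log2 ratio was 0.49 [0.29 to 0.68] for Mrc1, 0.43 [0.24 to 0.62] for Ccr2 and 0.23 [0.09 to 0.37] for Cx3cr1. Cd81 was level between the libraries at 0.04 [-0.04 to 0.13], and this sign turned to -0.12 under TMM scaling. Trem2 (0.15 [-0.26 to 0.56]) and Mertk (0.15 [-0.83 to 1.10]) had intervals on both sides of 0, and both turned to -0.01 under TMM scaling. Apoe was lower in PT I-PpoI at -0.38 [-0.41 to -0.35]. With free RNA subtracted, Ccr2 fell to 0.15 and Mrc1 to 0.20. Under the same step Cx3cr1 came to -0.06 and Cd81 to -0.23, and Trem2 to -0.13, so no direction is given for Cd81, Cx3cr1, Trem2 or Mertk.

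**Figure D2:**
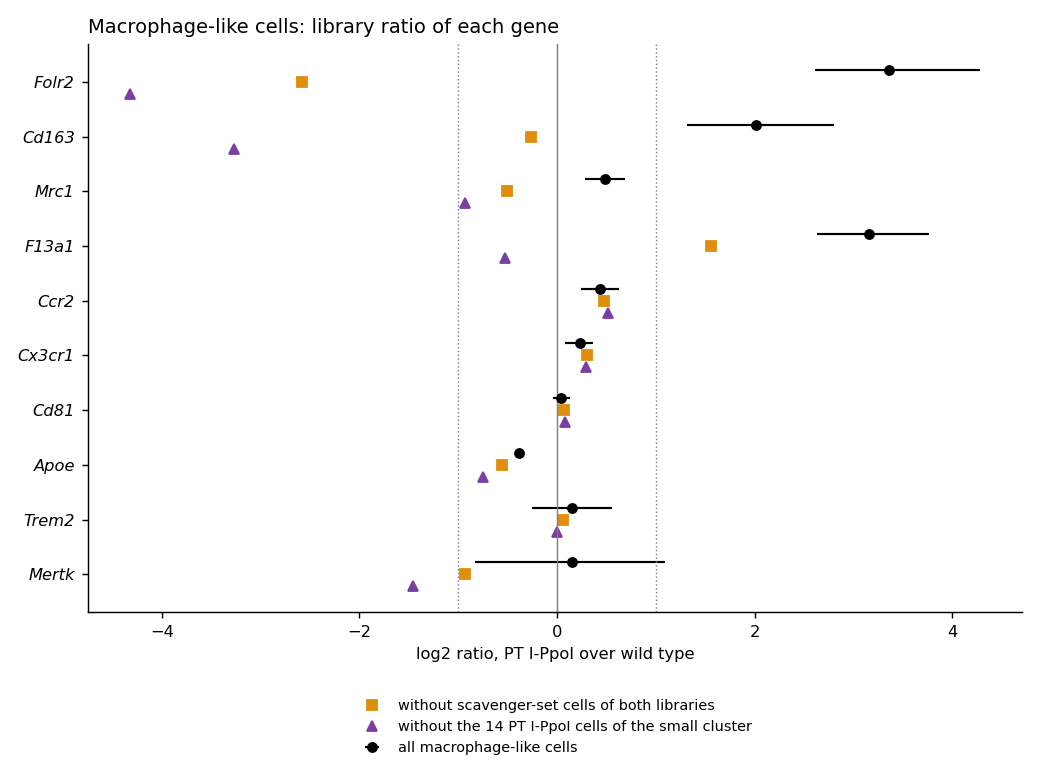
Log2 ratio of each gene, PT I-PpoI over wild type, in macrophage-like cells. Black points carry the 95% counting interval, squares leave out the scavenger-set cells of both libraries, triangles leave out the 14 PT I-PpoI cells of the small cluster, and dotted lines mark 2-fold. Folr2 and Cd163 lie past 2-fold higher with all cells and under neither exclusion, where Folr2 has 0 PT I-PpoI UMIs, so that both of its points rest on the prior count.

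The excess of these genes came from a handful of cells. When the PT I-PpoI library was clustered alone, again without the 10 genes, 14 of its 263 macrophages formed a cluster of their own. These 14 cells were 5.32% of the class and held 9.05% of its UMIs, with a median of 8329 UMIs, against 4891 in the other 249. They held 100% of the Folr2 UMIs of PT I-PpoI macrophages, 98.4% of Cd163, 93.2% of F13a1, 72.2% of Mertk and 66.0% of Mrc1. They held 29.3% of Apoe and 18.3% of Trem2, but 6.84% of Cd81, 4.55% of Cx3cr1 and 3.34% of Ccr2.

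Cell by cell, 9 of the 14 cells had Folr2, with 22, 19, 18, 15, 14, 11, 7, 3 and 3 UMIs, and 5 had none. Mrc1 was read in all 14 (1 to 57 UMIs), F13a1 in 12 (1 to 55 UMIs) and Cd163 in 10 (2 to 17 UMIs). Ccr2 was read in 1 of the 14 cells (15 UMIs) and Cx3cr1 in 5 (2 to 19 UMIs). Apoe was read in all 14, with 48 to 622 UMIs, at 28042 CPM for the cluster, against 5654, 6984 and 10455 CPM in the other 3 macrophage clusters of the PT I-PpoI library.

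**Figure D3:**
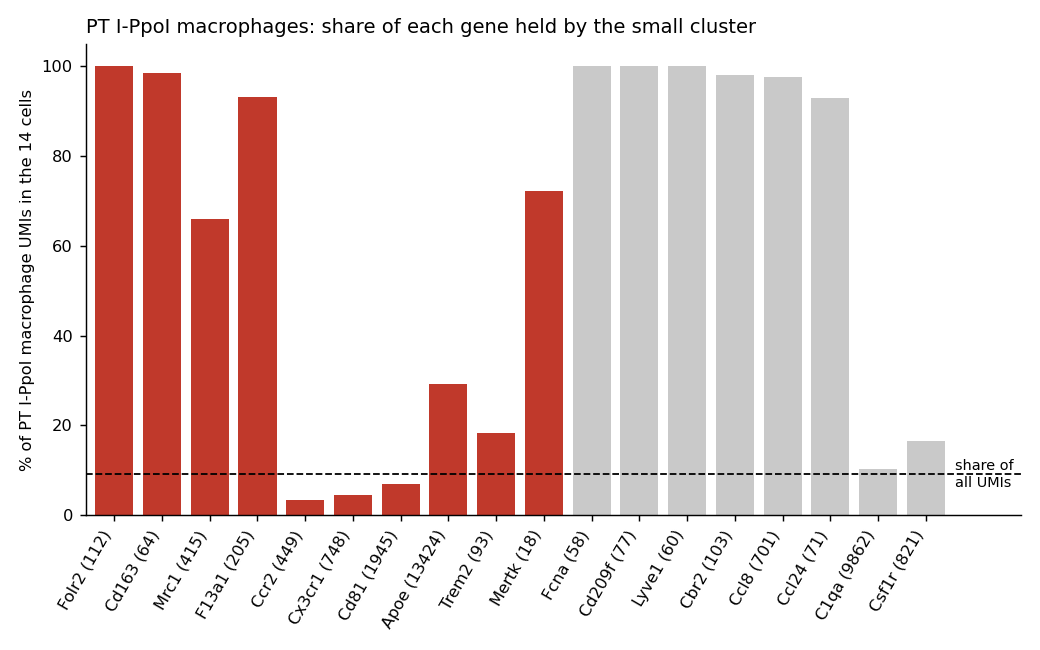
Share of each gene's PT I-PpoI macrophage UMIs that lay in the 14 cells of the small cluster, in percent, for the 10 genes (red) and for scavenger genes and general macrophage genes (grey), with the gene's UMI total in brackets. The dashed line is the cluster's share of all macrophage UMIs, 9.05%, which C1qa and Csf1r lie near and Folr2, Cd163 and F13a1 far exceed.

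The 14 cells were led by Ccl8 and Pf4 and read all 10 macrophage markers, at a summed 22131 CPM, against 21857 CPM in the other PT I-PpoI macrophages. Of the scavenger and perivascular list they held 100% of Fcna, Cd209f, Cd209d and Lyve1 UMIs, 98.1% of Cbr2, 97.6% of Ccl8 and 66 of 71 Ccl24 UMIs. These list genes could take part in the clustering, so their place there is no finding of its own. Markers of other classes were at or below the level of other macrophages for NK cells (0 of 9 markers read), urothelium (0 of 7), endothelium (5 of 10, 49.9 against 80.9 CPM), mural cells (2 of 9, 14.3 against 169 CPM) and proximal tubule (4 of 14, 35.6 against 62.4 CPM). Neutrophil markers summed to 214 against 14.9 CPM with 2 of 9 read, nearly all of it Mmp9 (27 UMIs in 6 cells), while S100a8 and S100a9 were at 0. Plasmacytoid dendritic markers summed to 528 against 350 CPM with 3 of 6 read (Siglech, Bst2 and Tcf4, the last at 356 against 100 CPM), with Ccr9 at 0. Parietal markers summed to 520 against 64.6 CPM (Vcam1, Cp and Pax2, with Cldn1 and Pax8 at 0), and dendritic markers to 1219 against 967 CPM, mostly Mgl2, with Flt3, Xcr1 and Clec9a at 0. Cell cycle markers summed to 998 CPM against 126 CPM in the other PT I-PpoI macrophages, and 2 of the 14 cells had 2 or more of these genes, 1 cell giving 92 of 140 UMIs. The part of these markers in the results was not tested.

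Without the 14 cells none of the 9 genes that still had 20 UMIs was 2-fold higher in PT I-PpoI, and Cd163 and Mertk were lower. This count has no share of all genes beside it, since none was taken without the 14 cells. Cd163 was then at 1 UMI in PT I-PpoI, against 22 in wild type, Mertk at 5 against 23, a log2 ratio of -1.46, and F13a1 at 14 against 32, a log2 ratio of -0.53. Folr2, at 0 UMIs against 15, was no longer measured. Leaving cells out of 1 library alone is not an even comparison, because wild type had such cells too. Clustered alone, wild type formed a cluster of 184 cells led by Pf4, Mrc1 and Apoe, and it held 15 of 15 Folr2, 20 of 22 Cd163 and 30 of 32 F13a1 UMIs of wild-type macrophages.

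The same rule was therefore applied to both libraries, chosen after these values were seen. A macrophage counted as a scavenger-set cell when it had UMIs of 2 or more of Lyve1, Cbr2, Cd209f, Cd209d, Ccl24, Ccl8 and Fcna, none of which is among the 10 genes. Ccl8, Cd209f, Ccl24, Fcna and Cbr2 were among the leading genes of the 14-cell cluster. The rule thus leans towards PT I-PpoI cells, and the shares it gives are a description. These were 10 of 263 PT I-PpoI macrophages, 3.80% [1.84 to 6.88], and 5 of 752 wild-type macrophages, 0.665% [0.216 to 1.54]. With every cell thinned to 2000 UMIs they were 8 of 256 cells, 3.13% [1.36 to 6.06], and 3 of 584 cells, 0.514% [0.106 to 1.49]. All 10 of the PT I-PpoI cells lay among the 14 cells of the small cluster, which the choice of genes made likely.

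Within scavenger-set cells most intervals of the ratios held 0, and with so few cells they are wide. Folr2 stood at 1033 CPM in PT I-PpoI and 606 CPM in wild type, a log2 ratio of 0.71 [-0.13 to 1.81]. F13a1 had a log2 ratio of 0.46, with an interval on both sides of 0, Cd163 0.02 [-0.94 to 1.28], Mrc1 -0.26 [-0.70 to 0.23] and Apoe 0.02 [-0.13 to 0.18], with 22523 and 22208 CPM of Apoe. Of the 10 genes, Cx3cr1 alone had an interval that left out 0, at 194 CPM in PT I-PpoI and 661 CPM in wild type, -1.80 [-2.86 to -0.61], from 21 UMIs in 2 cells and 12 UMIs in 3 cells.

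Outside the scavenger set 1 of the 9 genes with 20 UMIs, F13a1, was 2-fold higher and none was lower. The share of all genes past 2-fold was not taken in these cells, so the count is a description. Folr2 had 0 UMIs in 253 PT I-PpoI cells, which allows up to 2.08 CPM at 3 counts, and 4 UMIs in 747 wild-type cells. F13a1 was higher here, with 20 UMIs in 8 cells and 10 UMIs in 5 cells and a log2 ratio of 1.55 [0.43 to 2.85]. The 4 cells of the small cluster that the rule missed had 3, 0, 2 and 1 of the PT I-PpoI UMIs. Without all 14 cells of that cluster the ratio was -0.53, so the direction of F13a1 depends on which cells are left out. Mrc1 stood at 120 CPM and 171 CPM, -0.51 [-0.78 to -0.24], and Apoe at 7621 CPM and 11210 CPM, -0.56 [-0.59 to -0.52]. The rule had taken out 58.3% of PT I-PpoI and 11.5% of wild-type macrophage UMIs of Mrc1, and 18.2% and 1.63% of Apoe. It thus lowered the PT I-PpoI side more. No direction is read from this ratio of Mrc1, while Apoe was lower in PT I-PpoI with all macrophages too (-0.38). Ccr2 (0.48) and Cx3cr1 (0.30) changed little from their ratios over all macrophages (0.43 and 0.23). Free RNA was not subtracted here, and no direction is given for Cx3cr1. Scavenger-set cells had a median of 8930 UMIs in PT I-PpoI, against 4130 UMIs in wild type, and the part of depth in their levels was not tested.

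Macrophage clusters of each library were then set in order of Apoe. In PT I-PpoI, clusters of 118, 40, 79 and 14 cells had Apoe of 5654, 6984, 10455 and 28042 CPM, Trem2 of 38.6, 43.3, 108 and 121 CPM and Mrc1 of 59.6, 72.2, 127 and 1954 CPM. In wild type, clusters of 220, 8, 216, 124 and 184 cells had Apoe of 5441, 10372, 10609, 16129 and 19052 CPM and Trem2 of 27.4, 52.8, 35.0, 65.5 and 119 CPM. Trem2 and Mrc1 were highest in the cluster with the most Apoe in each library. In PT I-PpoI the 121 CPM of Trem2 came from 17 UMIs and lay close to the 108 CPM of the next cluster, so their order is not settled. Ccr2 in the same order was 256, 236, 325 and 107 CPM in PT I-PpoI and 317, 554, 258, 60.5 and 148 CPM in wild type. In each library the cluster with the most Apoe had less Ccr2 than the one with the least, without a steady fall between them. The cluster next to the top had the most Ccr2 in PT I-PpoI and the least in wild type. In PT I-PpoI the 107 CPM came from 15 UMIs of 1 cell. Cd81 varied little between clusters, from 948 to 1555 CPM in PT I-PpoI and from 1190 to 1425 CPM in wild type. These clusters were made from variable genes of the same cells, without the 10 genes, and are given as a description.

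**Figure D4:**
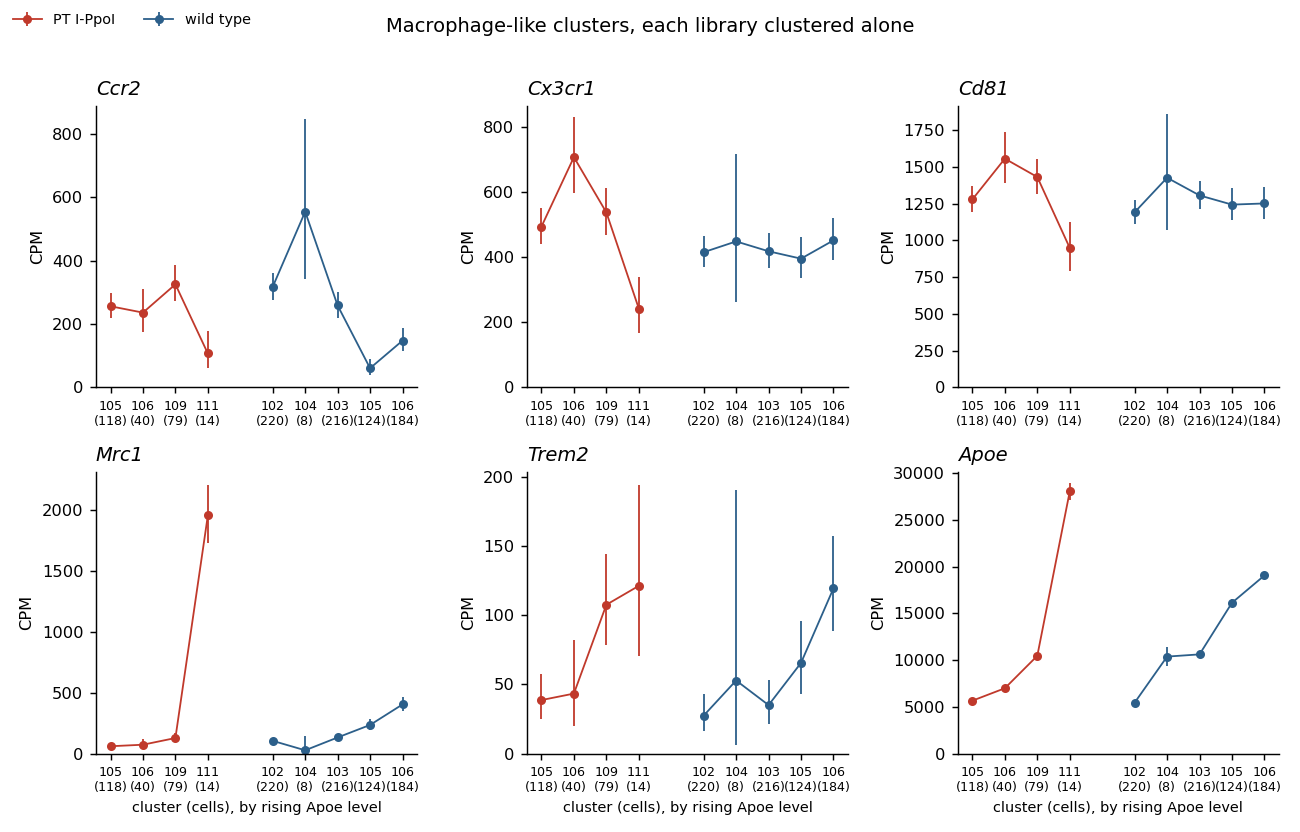
Levels of 6 genes in CPM in the macrophage-like clusters of PT I-PpoI (red, left) and wild type (blue, right), each library clustered alone and its clusters placed by rising Apoe, with cell numbers in brackets and 95% Poisson intervals. Trem2 and Mrc1 are highest where Apoe is highest in either library, and the 14-cell cluster 111 stands far above the rest in Mrc1. Ccr2 is lower in the last cluster than in the first but does not fall steadily between them. The highest Trem2 level in PT I-PpoI rests on 17 UMIs and lies close to the next.

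After thinning to 2000 UMIs, Apoe, Mrc1 and Pf4 were read in a smaller share of macrophages with a Ccr2 UMI than of those without. Of PT I-PpoI macrophages with a Ccr2 UMI, 33 of 70 had Apoe (47.1%), against 154 of 186 without Ccr2 (82.8%). In wild type 90 of 138 cells with Ccr2 had Apoe (65.2%), against 401 of 446 without (89.9%). Mrc1 was read in 11.4% of PT I-PpoI cells with Ccr2 and 23.7% without, and in 17.4% and 28.7% of wild-type cells. Pf4, the chemokine that marks scavenging macrophages, was read in 1 of 70 PT I-PpoI cells with Ccr2 (1.43%) and 27.4% of those without, and in 4.35% and 23.8% in wild type. Cx3cr1 showed little such split, at 58.6% of PT I-PpoI cells with Ccr2 and 62.4% without, and 47.1% and 51.8% in wild type.

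Few thinned macrophages had Folr2, so its overlap with other genes is given as counts only. None of 7 PT I-PpoI and none of 2 wild-type thinned macrophages with Folr2 had a Ccr2 UMI, and all 9 had Apoe. Among cells without Folr2, Ccr2 was read in 28.1% of PT I-PpoI and 23.7% of wild-type cells, and Apoe in 72.3% and 84.0%. With so few Folr2 cells no separation from Ccr2 is read. Without thinning, 1 of the 9 PT I-PpoI cells with Folr2 held both, with 3 Folr2 and 15 Ccr2 UMIs. Of the 7 PT I-PpoI cells with Folr2, 6 had Mrc1, 6 had F13a1, 6 had Lyve1 and 5 had Cd163. Of the 249 PT I-PpoI cells without it, 46 had Mrc1, 8 had F13a1, 1 had Lyve1 and 4 had Cd163.

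At equal depth the share of macrophages with a UMI gave the same order as the summed levels for 9 genes and the opposite for Mrc1, but the order of Mertk turned at 1000 UMIs (0.385% in PT I-PpoI, against 1.43% in wild type) and in the other clusterings, so none is read for it. Folr2 was read in 7 of 256 PT I-PpoI cells, 2.73% [1.11 to 5.55], and 2 of 584 wild-type cells, 0.342% [0.0415 to 1.23]. F13a1 was read in 5.47% [3.02 to 9.01] and 1.03% [0.378 to 2.22], and Cd163 in 3.52% and 1.37%, with intervals that overlap. Cx3cr1 was read in 61.3% [55.1 to 67.3] of PT I-PpoI and 50.7% [46.5 to 54.8] of wild-type cells, Ccr2 in 27.3% and 23.6%, Trem2 in 11.3% and 8.22%, and Cd81 in 91.4% and 88.0%. Apoe was read in fewer PT I-PpoI cells, 73.0% [67.2 to 78.4], than wild-type cells, 84.1% [80.9 to 87.0]. Mrc1 was read in 20.3% [15.6 to 25.8] and 26.0% [22.5 to 29.8], against its higher summed level in PT I-PpoI, so no order is read for it. Unthinned shares were 3.42% and 0.532% for Folr2, 6.46% and 1.06% for F13a1, 33.1% and 30.9% for Mrc1 and 76.8% and 86.2% for Apoe. Thinned T-like cells, which should lack most of these genes, gave 0 of 121 PT I-PpoI and 0 of 273 wild-type cells for Folr2, Cd163, Mrc1, F13a1 and Trem2, and 1.65% and 5.49% for Apoe, at a median depth of 4333 and 2369 UMIs before thinning.

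**Figure D5:**
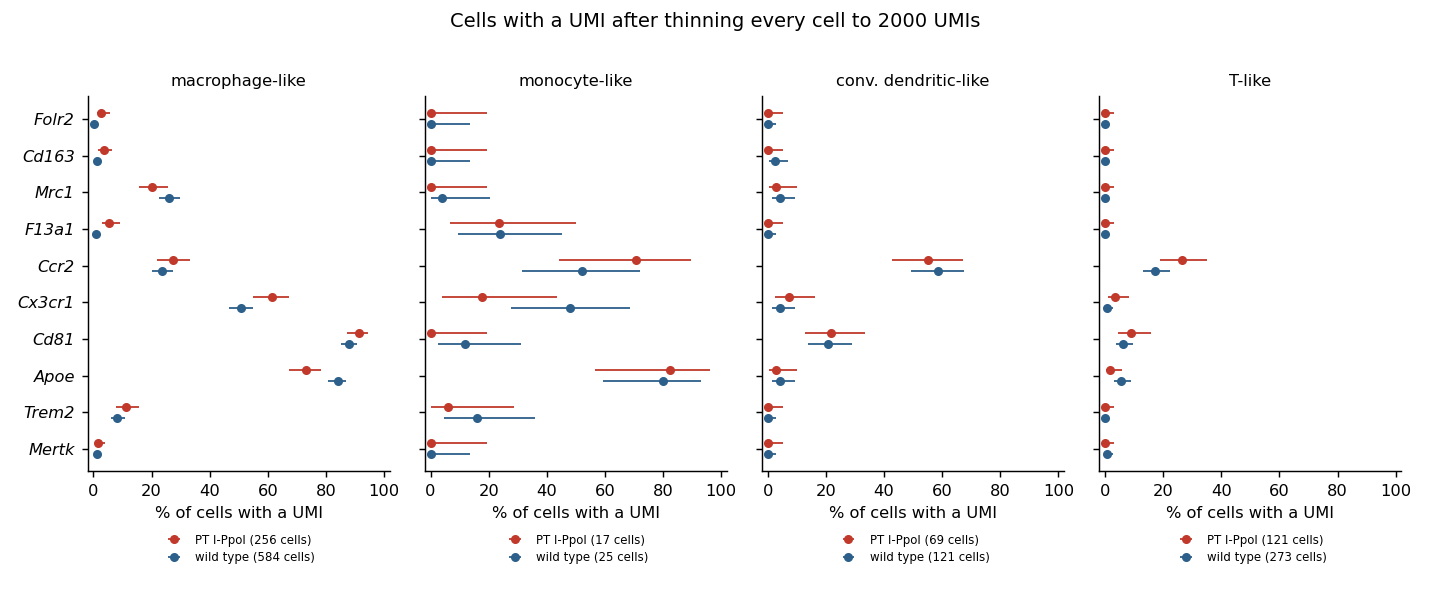
Share of cells with a UMI of each gene after every cell was thinned to 2000 UMIs, in percent with exact 95% binomial intervals, for PT I-PpoI (red, above) and wild type (blue, below) in 4 immune classes. Folr2, Cd163 and F13a1 are rare in macrophages, Ccr2 is read in 55.1% of PT I-PpoI and 58.7% of wild-type dendritic cells, and T cells read Ccr2 alone above 10%.

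Monocytes, dendritic cells and T cells held fewer of the genes at a measurable level. Of 4 genes with enough UMIs in monocyte-like cells none was 2-fold higher in PT I-PpoI, where 6.3% of 1571 genes were, and Cx3cr1 was lower (20 and 34 UMIs), where 3.69% were. Among the 5 genes with enough UMIs in conventional dendritic-like cells none was 2-fold higher in PT I-PpoI, where 6.38% of 6365 genes were, and Mrc1 and Apoe were lower, where 2.72% were. Mrc1 had a log2 ratio of -3.54 and Ccr2 lay near level at 421 and 475 CPM. In T-like cells 3 genes could be compared, and Apoe alone was past 2-fold, lower with 7 UMIs in PT I-PpoI against 32 in wild type, where 4.43% of 6454 genes were lower and 5.44% higher. Free RNA of dendritic-like cells was 4.74% in PT I-PpoI, against 11.3% in wild type, of T-like cells 5.21% and 21.6%, and its part in these low Apoe and Mrc1 values was not tested.

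Outside the immune cells Apoe differed in proximal tubule-like cells taken as a class. There Apoe stood at 654 CPM [620 to 689] in PT I-PpoI (186 cells) and 179 CPM [174 to 183] in wild type (5980 cells), a log2 ratio of 1.87 [1.79 to 1.96], where 15% of 12096 genes were 2-fold or more higher and 4.57% lower. The libraries held different mixes of clusters in this class. A joint cluster led by Snhg11 and Slc5a12 held 111 of the PT I-PpoI and 840 of the wild-type cells. The part of this mix was not tested. In endothelium-like cells Mrc1 (8 and 28 UMIs), Ccr2 (5 and 43) and Cx3cr1 (8 and 26) were lower in PT I-PpoI, where 5.57% of 12201 genes were (5.84% were higher), while Cd81 (0.22), Mertk (0.24) and Apoe (-0.78) were within 2-fold. Macrophage markers in endothelium-like cells summed to 104 CPM and 207 CPM, with 10 of 10 read in each library. T markers summed to 72.9 and 169 CPM, while monocyte markers went the other way, at 394 and 239 CPM. A joint cluster of the immune step that was named endothelium-like held 2 PT I-PpoI and 63 wild-type cells. The part of these markers and of this cluster in the 3 low ratios was not tested.

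Companion genes were read from 4 lists of 25 or 26 genes each. Of 23 measured genes of the scavenger and perivascular list 12 were higher in PT I-PpoI macrophages and none was lower, where 5.58% of all genes measured in macrophages were higher and 4.33% lower, with a median log2 ratio of 1.50, against 0.16 over all genes. Fcna (a ficolin) had 58 and 2 UMIs, Cd209f and Cd209d (lectins) 77 and 3 and 33 and 1 UMIs, and the eosinophil chemokine Ccl24 71 and 4 UMIs. Without the scavenger-set cells of both libraries 1 of 13 measured genes of that list was higher (Ccl8) and none was lower, and without the 14 cells none of 14 was higher and 3 were lower (Cbr2, Igf1 and Ccl8). The list shares its 7 set genes with that rule, and no share of all genes was taken for either exclusion.

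The monocyte list was less bound to the 14 cells. Of its 14 measured genes 6 were higher and none was lower (5.58% and 4.33% of all genes), with a median of 0.56. Fn1, the fibronectin gene, had 92 UMIs in PT I-PpoI macrophages and 1 in wild type, none of them in the 14 cells, and S100a4 stood at 165 CPM and 30.7 CPM. These too lay in few cells, since 5 PT I-PpoI cells gave 97.8% of the Fn1, 65.5% of the S100a4 and 59.8% of the Ccl2 UMIs. Ccl2 was at 246 CPM [222 to 272] in PT I-PpoI and 46.7 CPM [38.1 to 56.7] in wild-type macrophages, which were the class with the most Ccl2 among those of 50 or more cells in each library, and Ccl7 at 36.8 and 14.2 CPM. The 14 cells held 34.9% of the Ccl2 and 59.6% of the Ccl7 UMIs. Fn1, S100a4, Ccl2 and Cebpb were still higher without the scavenger-set cells. The early monocyte gene Ly6c2 was too low to measure, with 2 UMIs in PT I-PpoI and 9 UMIs in wild type.

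Lipid and uptake genes moved little as lists. Of 21 measured genes of lipid handling and the Trem2 programme 2 were higher, Cd36 (a fatty acid translocase, 180 and 71.4 CPM) and Lpl (lipoprotein lipase, 299 and 149 CPM), none was lower, and the median was 0.34, so the list's share was near that of all genes (5.58% higher, 4.33% lower). Lpl lay just past 2-fold at 1.01, and 5 PT I-PpoI cells gave 54.4% of its UMIs. Gpnmb was at 0 UMIs in both libraries, Spp1 stood at 109 CPM and 184 CPM, and Tyrobp, the partner of Trem2, at 2041 CPM and 1989 CPM. Of 19 measured genes for clearance of dying cells 3 were higher, Anxa1 (38.7 and 11.9 CPM), Mfge8 (24 and 15 UMIs) and Cd36, none was lower, where 5.58% and 4.33% of all genes were, and the median was 0.28. Of the PT I-PpoI UMIs of Anxa1, 5 cells gave 65%, and of those of Mfge8 54.2%. Axl, a relative of Mertk, stood at 132 CPM and 113 CPM. Tyro3, the other relative, had no UMI in either library.

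Ligands and partners were read partly outside macrophages, again among classes of 50 or more cells. Gas6 was highest in endothelium-like cells, at 307 CPM [295 to 319] in PT I-PpoI and 382 CPM [367 to 398] in wild type, with 83.3 and 49.4 CPM in macrophages, and 62.0% of the PT I-PpoI macrophage UMIs of Gas6 lay in the 14 cells. Cx3cl1, the ligand of Cx3cr1, was highest in endothelium-like cells at 43.3 CPM and 35.5 CPM. Csf1, a growth factor for macrophages, was also highest there (382 and 372 UMIs), while Il34, the other ligand of its receptor, was highest in PT I-PpoI in parietal-like cells (49.2 CPM) and in wild type in thin limb-like cells (64.3 CPM). Pros1 was highest in intercalated-like cells in PT I-PpoI (84.3 CPM) and in endothelium-like cells in wild type (74.6 CPM), which overlapped. Ccl12 (216 and 107 CPM) and Ccl8 (452 and 77.8 CPM) were highest in macrophages. Of receptors for Apoe, Lrp1 was highest in mural-like cells (86.2 and 88.5 CPM) and Vldlr in thin limb-like cells (136 and 201 CPM). Tnfsf12, reported to bind Cd163, was highest in endothelium-like cells in PT I-PpoI (115 CPM) and mural-like cells in wild type (92.8 CPM), and Hp, the haptoglobin gene, had no UMI in macrophages of either library.

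Likeness in pattern was measured as Pearson's r of log2(CPM + 10) over 27 points (named cell classes of 50 or more cells in each library) among 7232 genes. Monocyte-like cells were thus left out, where F13a1 stood at 288 and 222 CPM and Folr2 and Cd163 had 0 UMIs. The points share libraries, so r is a description. Over these points Folr2 was most like F13a1 (0.99), Retnla (0.97) and Lyz1 (0.96), and Cd163 most like Lyz1 (0.94) and F13a1 (0.93). Outside macrophages Folr2 stood at 1.88 CPM or less at every point, so its likeness rests mainly on the macrophage points. Mrc1 was most like Adgre1 (0.98) and Pilra (0.98), Cx3cr1 most like Lair1 (0.98) and Siglece (0.98), and Ccr2 most like Myo1f (0.98) and Tnf (0.97). The best match was Rab3il1 (0.76) for Apoe, Lifr (0.81) for Cd81, Jam3 (0.81) for Mertk and Ang (0.88) for Trem2.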

How the data were processed

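The authors deposited UMI counts with no barcode filter, 1 matrix a library. Per the labels' protocols, cortex was digested with enzymes and 3′ libraries followed the 10x v3.1 kit. Reads were counted on mm10 with Cell Ranger 3.1, and Seurat 3 was used, per the submitters' processing notes, while the file headers name Cell Ranger 4. Cells were called from all barcodes by depth (5651 or more UMIs in PT I-PpoI, 3656 in wild type) or by a multinomial test against ambient RNA (500 or more UMIs, ranks 45001 to 90000, 10000 simulations, rate 0.01). Barcodes with under 200 genes or over 50% mitochondrial UMIs and Scrublet doublets (expected rate 0.06) were left out. Cells were clustered in 2 steps, all cells and then immune cells (Leiden, resolution 1, scanpy 1.11.5), and named by marker genes as X-like. The second step was added after the first had been seen. UMIs were summed per class and library. A prior of 0.5 count was added for ratios, whose intervals are exact binomial ones given the total. Intervals are exact Poisson for CPM and Clopper-Pearson for shares. TMM factors came from edgeR 4.0.16, with no edgeR test run. The ratio and its interval were tested on simulated data. The 10 genes and the lists were chosen with earlier results of these data known. For each of the 10 genes, 5 like genes of 50 CPM or more were found, and lists name up to 4 genes of 30 or more UMIs that lie furthest from 0 past 2-fold, and the others named were chosen after their values were seen. Alternatives are given at the end. Libraries differ in depth, so shares were compared after thinning to 2000 UMIs, which left out 7 PT I-PpoI and 168 wild-type macrophages.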

Additional observations from a re-analysis of the deposited data

Results flagged for a closer look

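In 6 cases the log2 ratio of a gene, on summed UMIs, had 1 sign in macrophages and the other in another class, with counting intervals on opposite sides of 0. These differences were not tested, since each class holds 1 library per group. The log2 ratio, PT I-PpoI over wild type, of Mrc1 was -3.54 in conventional dendritic-like cells and -2.08 in endothelium-like cells, beside 0.49 in macrophages. That of Ccr2 was -3.32 in endothelium-like cells, beside 0.43 in macrophages, and that of Cx3cr1 was -1.98, beside 0.23. That of Apoe was 1.87 in proximal tubule-like cells and 1.46 in mural-like cells (353 and 90 UMIs), beside -0.38 in macrophages. The libraries held different mixes of proximal tubule clusters and of endothelium-like clusters, whose part in these ratios was not tested. The macrophage sign of Cx3cr1 turned with free RNA subtracted (-0.06), and that of Mrc1 turned without the scavenger-set cells (-0.51) or the 14 cells (-0.93), so neither has a settled direction in macrophages to be opposite to.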

How the results depend on the processing

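The count of 3 genes higher and 0 lower in macrophages was the same under all 11 alternatives chosen at the start: doublets kept, stricter mitochondrial and depth limits, free RNA subtracted from either ambient profile, cells weighted equally, TMM scaling, another clustering resolution, the 10 genes kept for clustering, libraries clustered apart and no filter on low counts. The 2 alternatives added after seeing the data moved the count, and no share of all genes was taken for them. Without the 14-cell cluster the count was 0 higher and 2 lower (Cd163 and Mertk, at -1.46), and the log2 ratios of Folr2 (-4.32, with 0 UMIs in PT I-PpoI, so it rests on the prior count), Cd163 (-3.27) and F13a1 (-0.53) were reversed. Without scavenger-set cells of both libraries it was 1 higher and 0 lower, with Folr2 at -2.58 (0 against 4 UMIs, so again resting on the prior count) and Cd163 at -0.26, an interval of -1.87 to 1.13 that holds 0. Their range over all alternatives was -4.32 to 3.50 for Folr2, -3.27 to 2.14 for Cd163, -0.53 to 3.22 for F13a1 and -0.93 to 0.50 for Mrc1, while Apoe stayed between -0.75 and -0.28 and Ccr2 between 0.15 and 0.52. Thinning to 1000 UMIs put Cd163 at 0.769% and 0.572% of macrophages and turned the order of Mertk. No paired analysis was possible because each group holds 1 library, and for the same reason no replicate could be left out. The log2 ratio of Apoe in mural-like cells was no longer 2-fold at resolution 0.5 (0.72), with the 10 genes kept (0.72) or with libraries clustered apart (0.57), where that class held 177, 177 and 181 wild-type cells in place of 158.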
